A study of Mus musculus with 6 samples.

Results

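In CD45-positive cells sorted from subcutaneous YUMM1.7 melanomas of mice, 761 of the 20407 barcodes assigned to a mouse (3.73%) held abundant collagen RNA. These collagen-high cells were picked by their own raw UMIs (unique molecular identifiers, each standing for 1 captured RNA molecule). The rule asked for at least 10 UMIs summed over Col1a1, Col1a2 and Col3a1, at least 2 of Sparc, fewer than 10 summed over C1qa, C1qb and C1qc, and 0 of Cd3e and Cd3d. Every barcode also had at least 500 gene UMIs, at most 10% mitochondrial UMIs, and a top hashtag with at least 10 counts and at least 70% of all hashtag counts; a hashtag is an antibody that marks the cells of 1 sample before pooling.

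The study joined RNA and 88 antibodies read from the same cells (CITE-seq, 10x 3′ counts) in tumours of 8-week-old female mice of the C57BL/6J background (strain label C57BL/6JRccHsd). All mice carried floxed alleles of Nr3c1, the glucocorticoid receptor gene; LysM-Cre mice also carried Cre under the promoter of Lyz2, which is active in myeloid cells, while floxed mice had no Cre. After injection of 250000 YUMM1.7 cells, a mouse melanoma line, mice received 12.5 mg/kg of anti-PD-1 or of an isotype antibody 2 times a week for 3 weeks from about day 7, and tumours were taken on day 28. The 4 conditions were LysM-Cre anti-PD-1, floxed anti-PD-1, LysM-Cre isotype and floxed isotype, each with 4 hashtagged mice, 2 in pool E5 (mice 1 and 2) and 2 in pool E6 (mice 3 and 4). Conditions came from the submitters' table of hashtag antibodies, and nothing beyond the separate hashtags describes the animals. That table lists the same tag, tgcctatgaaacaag, for hashtags 8 and 9, both floxed isotype, although the matrices count them separately (86 and 196 collagen-high cells in E5, 118 and 54 in E6).

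Type I and type III collagens form the fibres of connective tissue. Fibroblasts secrete them together with proteoglycans, with enzymes that trim and cross-link the fibres, and with Sparc, a glycoprotein that binds collagen outside the cell. In tumours such stromal cells also release chemokines that steer immune cells, and melanoma cells that have lost pigment genes can switch on mesenchymal genes as well.

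The collagen-high cells had a median of 25938 gene UMIs and 5076 genes, against 8705.5 UMIs and 2541.5 genes in the other 19646 assigned barcodes. Their hashtag signal was low, with a median of 142 counts against 743 in the others. Before hashtags were read, 1550 barcodes met the RNA rule, of which 416 failed for low and 373 for mixed hashtag counts; 49.1% were kept, against 73.0% of the barcodes outside the rule. The 2 pools, of 15301 and 16614 barcodes, shared 805 barcode sequences, and 82 of the 761 collagen-high cells carried one of them. The median cell held 78 collagen UMIs (10 to 660), 30 of Sparc (2 to 160) and 3 of C1q (0 to 9). Just inside the limit, 35 cells had 10 to 19 collagen UMIs; just outside it, 16 barcodes that met the rest of the rule had 5 to 9.

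Levels are given as CPM (the UMIs of a gene as a share of all gene UMIs of the summed cells, scaled to the usual fixed total), and they compare groups within a gene, not genes with each other. The contrast of collagen-high cells with other barcodes is a description with no test, because the same RNA chose the cells. Mgp, matrix Gla protein, which restrains calcification, had 13172 CPM in collagen-high cells and 864 CPM in other assigned barcodes; over the 14 mice with at least 10 such cells it ran between 5473 and 32496 CPM. Crabp1, which binds retinoic acid in the cytoplasm, had 2538 CPM against 140 CPM in other barcodes. Bgn, the matrix proteoglycan biglycan, had 1659 CPM against 87.0 CPM. All 3 genes, which the rule did not name, stood at least 15.2 times above the other barcodes.

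The matrix programme was broad. At least 10 CPM was reached by 17 of 18 collagen genes, the exception being Col14a1 at 2.38 CPM. Beside the fibrillar chains used in the rule these included Col18a1 at 388 CPM and Col4a1 at 162 CPM, chains of basement membrane, and Col6a3 at 353 CPM, a chain of beaded microfibrils. Of 27 other matrix proteins 24 reached 10 CPM, led by Fn1, the fibronectin gene, at 1132 CPM, and including the proteoglycan genes Dcn at 408 CPM and Vcan at 255 CPM. Of 23 genes for matrix processing 20 did, among them Serpinh1, the collagen chaperone of the endoplasmic reticulum, at 448 CPM, Loxl1, which cross-links elastin, at 147 CPM, and the protease gene Mmp3 at 289 CPM. Mmp3 was uneven between mice, with 39.8 to 1482 CPM.

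Genes that mark fibroblasts were present in part. Of 22, 13 reached 10 CPM, including the PDGF receptor gene Pdgfra at 240 CPM (148 to 441 CPM over 14 mice) and the transcription factor genes Prrx1 at 470 CPM and Twist1 at 160 CPM. Others stayed low: Thy1 had 4.06 CPM, Pi16 3.18 CPM, Dpp4 0.662 CPM and Tcf21 0 UMIs, where 3 UMIs in the 22655371 of these cells would be 0.132 CPM. The smooth-muscle actin gene Acta2 had 66.9 CPM and Tagln 1.06 CPM. Mural cell markers were almost missing, with 1 of 10 at 10 CPM (Cspg4, 43.7 CPM) and Kcnj8, Abcc9, Rgs4 and Vtn at 0 UMIs. Endothelial markers reached 10 CPM in 2 of 12 (Eng and Plvap), with Pecam1 at 2.03 CPM and Cldn5 at 0 UMIs.

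Pigment cell genes were at or near 0. Mlana, Tyr and Tyrp1, which serve melanin synthesis or melanosomes, had 0 UMIs, Pmel had 0.309 CPM, Sox10 0.353 CPM and Mitf, the master regulator of melanocytes, 7.46 CPM. The list of 20 melanoma genes reached 10 CPM for Cd63, Axl, Sox9 and Met, which many mesenchymal cells also express.

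Sex-linked RNA set these cells apart from the immune cells of the same female hosts. Ddx3y, Uty and Kdm5d, genes of the Y chromosome, together had 50.01 CPM in collagen-high cells, against 0.737 CPM in barcodes with at least 10 C1q UMIs (macrophage-type) and 0.925 CPM in Cd3-positive ones; Eif2s3y had 0 UMIs. Xist, transcribed from the inactive X chromosome of females, had 27.2 CPM in collagen-high cells, against 795 CPM in C1q-high and 1048 CPM in Cd3-positive barcodes. LysM-Cre isotype mouse 1 was far lower, at 167 CPM in C1q-high and 215 CPM in Cd3-positive barcodes, with 13.8 CPM in its collagen-high cells. The other mice had 647 to 1037 CPM and 894 to 1295 CPM in those barcodes. A Y-linked UMI was seen in 374 of 761 collagen-high cells (49.1%), against 0.963% of C1q-high and 0.713% of Cd3-positive barcodes. With each cell thinned to 5000 UMIs, which left out 6 collagen-high, 815 C1q-high and 1584 Cd3-positive barcodes, the shares were 21.7%, 0.427% and 0.559%. Cells of a female host carry no Y chromosome, and 339 of the 761 cells had neither Y-linked nor Xist UMIs. The sex of the mouse from which YUMM1.7 was made is not given in the labels, so the cells are called here by the rule that chose them and by no cell type name. Ddx3y lies at chrY:1260715-1286628 and Xist at chrX:103460373-103483233 (GRCm38.p6).

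Y-linked RNA was found in every mouse with at least 10 collagen-high cells. Its summed level was 75.9, 59.7, 57.1 and 117 CPM in mice 1 to 4 of the LysM-Cre anti-PD-1 group, the first with only 6 cells. In floxed anti-PD-1 mice it was 47.2, 48.3 and 77.3 CPM in mice 1, 3 and 4, and 0 UMIs in the single cell of mouse 2. LysM-Cre isotype mice had 81.0, 78.9, 78.5 and 69.0 CPM. Floxed isotype mice had 42.2, 8.95, 59.4 and 76.7 CPM. Among the 14 mice with at least 10 cells, floxed isotype mouse 2 stood below all the others, and 160 of its 196 cells had neither Y-linked nor Xist UMIs. Without that mouse the pooled level was 65.3 CPM and 62.7% of 565 cells had a Y-linked UMI.

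**Figure D1:**
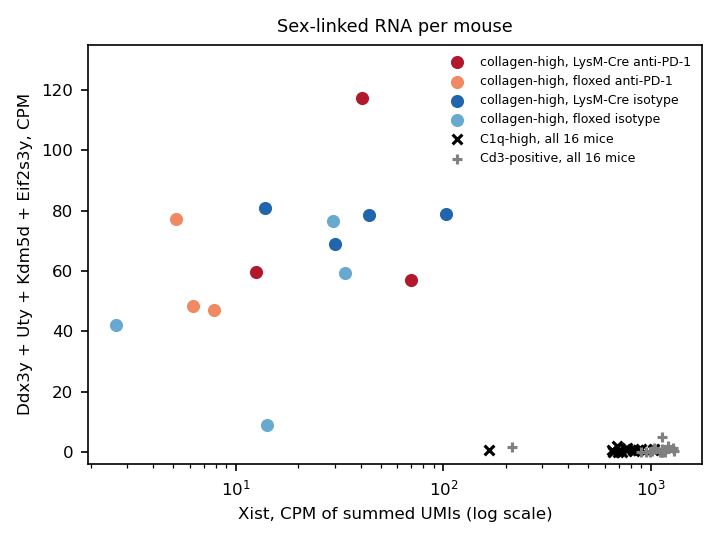
Summed Y-linked RNA (y, CPM) against Xist (x, CPM, log axis) per mouse in collagen-high cells of the 14 mice with at least 10 of them, and in C1q-high and Cd3-positive barcodes of all 16 mice; each point is 1 mouse. Collagen-high cells are high in Y-linked RNA and low in Xist, with floxed isotype mouse 2 lowest in Y-linked RNA at 8.95 CPM.

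The little Xist they held moved with immune RNA. Of the 761 cells, 638 had 0 Xist UMIs and 50 had 5 or more; 75 cells carried both Xist and Y-linked UMIs. Over 6 genes common to immune cells (Ptprc, Tyrobp, Fcer1g, Lyz2, Cd74 and Laptm5), the 50 cells had a median of 128 UMIs, against 6 in cells with 0 Xist UMIs. By immune UMIs, Xist was 7.16 CPM at 0 to 2 (70 cells), 3.50 CPM at 3 to 6 (348 cells), 6.26 CPM at 7 to 20 (258 cells), 97.4 CPM at 21 to 100 (42 cells) and 248 CPM above 100 (43 cells). Y-linked RNA over the same bins was 54.4, 46.8, 48.3, 75.3 and 54.2 CPM. Xist was high in the bins above 20 immune UMIs, and Y-linked RNA was present in all 5 bins.

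**Figure D2:**
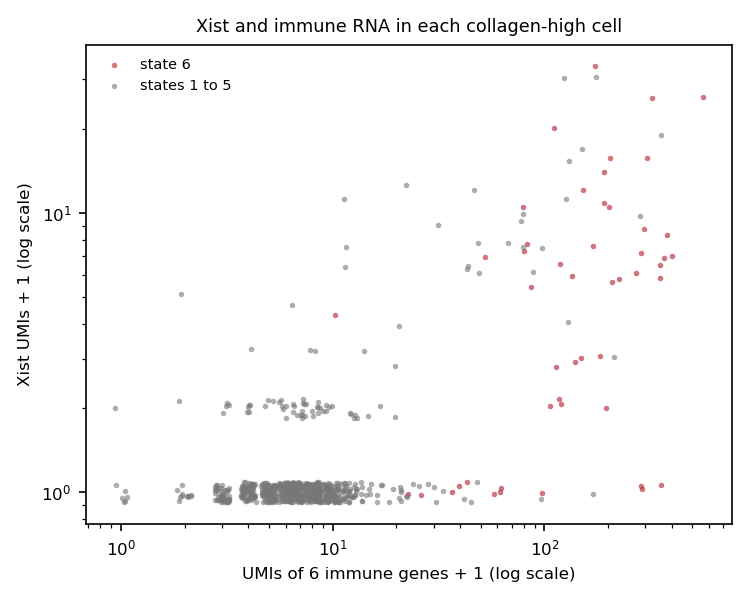
Each point is 1 collagen-high cell, placed by its UMIs of 6 immune genes (x) and of Xist (y), both plus 1 on log axes with a small random shift; cells of state 6, defined further on, are red. The 50 cells with at least 5 Xist UMIs lie mostly on the right, at a median of 128 immune UMIs.

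Surface antibodies, given as mean counts per cell, also set these cells apart. Podoplanin, a mucin-type glycoprotein of fibroblasts and lymphatic vessels, had 97.3 counts in collagen-high cells against 8.87 in other assigned barcodes, and was above the others in 14 of 14 mice. CD9 had 33.6 counts against 4.38, and CD81, like CD9 a tetraspanin, 81.8 against 15.8; both were higher in 14 of 14 mice. CD11b, an integrin of myeloid cells, was lower in 14 of 14 mice, with 120 counts against 566 in the other barcodes. CD5, a T-cell protein, had 3.04 counts against 59.4. The rat isotype control antibodies were below the other barcodes or at 0 in both (Rat IgG1 0.164 against 0.405 counts).

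Some genes for secreted signals were also high. Of 26 growth factor genes 18 were higher than in other barcodes, with a sum of 1699 CPM against 276 CPM. Of 25 inflammatory secreted genes 14 were higher, but their sum was lower, at 1575 CPM against 4073 CPM. Cxcl12, the ligand of the chemokine receptor CXCR4, had 165 CPM against 7.62 CPM in other barcodes. Grem1, a secreted antagonist of bone morphogenetic proteins, had 171 CPM against 11.97 CPM, and Igfbp4, which binds insulin-like growth factors, had 754 CPM against 94.2 CPM. Spp1, encoding osteopontin, had 8980 CPM against 970 CPM. Immune lists were low in sum: macrophage genes 410 CPM against 14193 CPM, and T and NK cell genes 54.0 CPM against 1542 CPM. These low sums are partly set by the rule, which limits C1q RNA and excludes Cd3e and Cd3d. Cd274, which encodes the PD-1 ligand PD-L1, had 7.11 CPM against 67.02 CPM. Cell-cycle genes summed to 2192 CPM against 1490 CPM.

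The cells fell into 6 states when clustered on their own RNA. The genes that lead a state are listed as its definition and were not tested. State 1 held 223 cells (29.3%) and was led by Mmp3 (931 CPM against 109 CPM in the other collagen-high cells), Spp1 (28218 against 3569 CPM) and Dcn (1121 against 208 CPM). State 2 held 173 cells (22.7%) led by genes of dividing cells, such as Cenpf (338 against 7.03 CPM), a kinetochore protein, and Mki67 (349 against 11.4 CPM). State 3 held 163 cells (21.4%) with smaller contrasts, such as the metalloproteinase inhibitor gene Timp3 (1066 against 404 CPM) and the small proteoglycan gene Ogn (117.5 against 40.2 CPM).

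State 4 held 88 cells (11.6%) led by genes of elastic and provisional matrix, with Postn at 1827 against 167 CPM, Mfap4 at 349 against 25.9 CPM and Eln, the elastin gene, at 114 against 14.3 CPM. Of its cells 52 came from floxed isotype mouse 2. State 5 held 65 cells (8.54%) led by interferon-induced genes, with Cxcl10, a chemokine for T cells, at 2932 against 183 CPM and the guanylate-binding protein gene Gbp2 at 1025 against 90.8 CPM. Summed T and NK cell genes had 496 CPM in state 5, against 12.6 to 40.0 CPM in the other states, and 13 of its 65 cells ranked in the top 10% of Scrublet doublet scores; their part in state 5 was not tested. State 6 held 49 cells (6.44%) led by S100a8 (1620 against 29.4 CPM) and S100a9 (1945 against 38.3 CPM), followed by Acp5, Plac8, Ms4a4c and Chil3. More than 1 immune list was high in it. Summed neutrophil genes had 4443 CPM, against 48.8 to 175 CPM in the other states. Macrophage genes had 2033 against 245 to 407 CPM, and MHC class II genes 5174 against 178 to 286 CPM. Its cells had a median of 161 UMIs of the 6 immune genes, against 5 to 8 in the other states. By the same score, 29 of the 49 ranked in the top 10%. The part of doublets in state 6 was not tested.

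All 6 states carried Y-linked RNA. It was 82.6, 36.6, 37.4, 33.6, 65.3 and 61.7 CPM in states 1 to 6, and 84.9, 51.8, 57.7, 64.7, 76.3 and 63.5 CPM without floxed isotype mouse 2. Xist was highest in state 6 at 217 CPM, with 49.96 CPM in state 5 and 5.83 to 19.1 CPM in the others. Summed MHC class I genes, which present peptides to CD8+ T cells, had 11006 CPM in state 5, against 3188 to 5884 CPM in the other 5 states. The Sca1 antibody, against a protein that interferons induce in many cells, had 377 counts per cell in state 5 and 153 to 215 in the others, while CD11b had 690 counts in state 6 and 54.7 to 106 elsewhere.

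Interferon-induced genes are switched on through promoter elements, the interferon-stimulated response element and the gamma-activated site. Promoters from RefSeq (GRCm38.p6, 250 bases before to 50 after the start) were searched on both strands for GAAA, any 2 bases and GAAA again, a core of the first element, and TTCNNNGAA, the core of the second; the motifs could overlap. The first core was present in 4 of the 5 leading genes of state 5 that had a promoter (Cxcl10, Gbp2, Gbp5 and Ifit3, not Cxcl9), in 3 of 22 leading genes of the other 5 states, and in 3.44% of 32851 promoters. The second was present in 1 of 5 (Gbp5), 1 of 22 and 8.30%. A leading gene was counted if any of its promoters matched, while the percentages count single promoters, so the 2 are unlike measures. A match of letters shows no binding. The promoters of Cxcl10 (chr5:92348840-92349139, minus strand), Gbp5 (chr3:142496684-142496983, plus strand) and Ifit3 (chr19:34583279-34583578, plus strand) are shown because they carry the motifs of the state with the interferon programme, with matches in capitals.
Cxcl10: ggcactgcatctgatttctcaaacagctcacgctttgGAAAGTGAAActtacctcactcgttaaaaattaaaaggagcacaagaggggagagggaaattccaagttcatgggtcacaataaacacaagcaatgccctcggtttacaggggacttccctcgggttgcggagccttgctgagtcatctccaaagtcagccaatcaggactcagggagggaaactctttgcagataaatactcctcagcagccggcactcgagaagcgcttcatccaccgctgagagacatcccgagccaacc
Gbp5: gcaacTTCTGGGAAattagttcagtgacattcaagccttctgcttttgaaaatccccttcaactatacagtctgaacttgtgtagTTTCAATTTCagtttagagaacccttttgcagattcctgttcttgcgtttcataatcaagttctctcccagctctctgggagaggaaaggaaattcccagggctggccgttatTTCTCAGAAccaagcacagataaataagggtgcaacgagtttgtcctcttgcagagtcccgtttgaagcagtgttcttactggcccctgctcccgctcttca
Ifit3: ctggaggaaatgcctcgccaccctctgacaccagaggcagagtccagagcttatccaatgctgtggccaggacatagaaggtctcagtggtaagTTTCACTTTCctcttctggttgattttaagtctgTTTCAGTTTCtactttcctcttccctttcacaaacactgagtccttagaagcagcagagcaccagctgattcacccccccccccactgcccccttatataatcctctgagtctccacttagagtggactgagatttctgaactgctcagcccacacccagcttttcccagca
Cxcl10 has 1 match to the first core, Ifit3 has 2, and Gbp5 has 1 beside 2 matches to the second core.

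**Figure D3:**
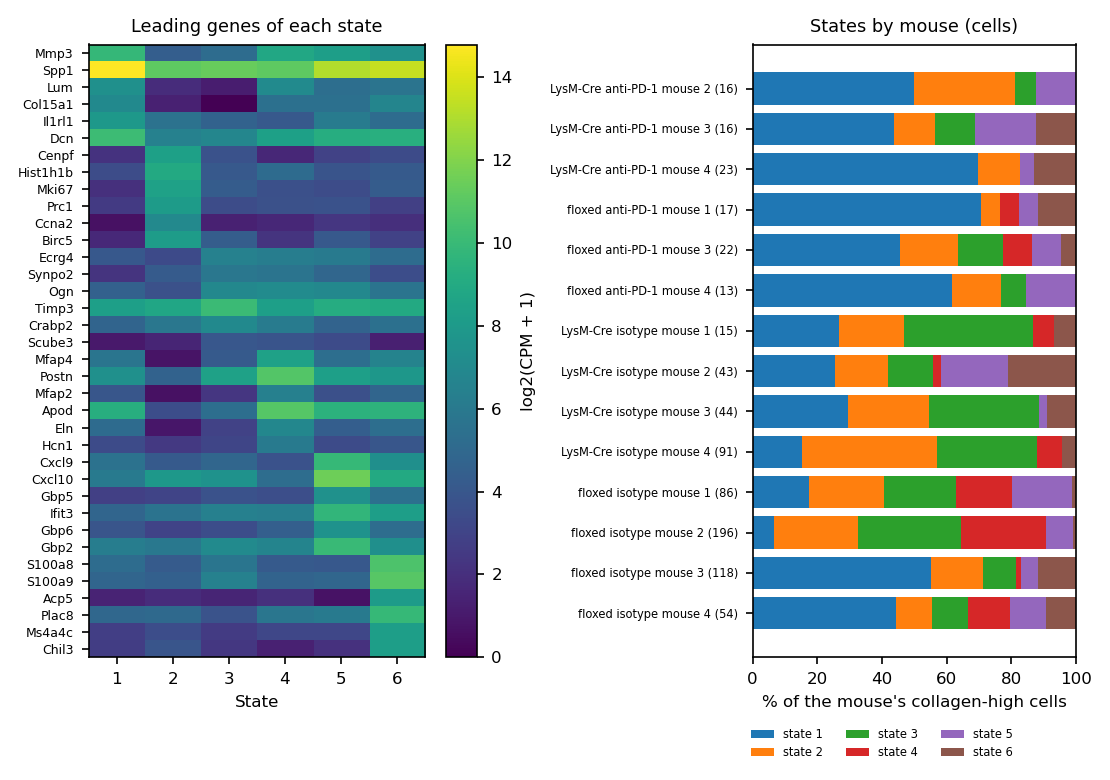
Left, log2(CPM + 1) of the 6 leading genes of each state (rows) in the 6 states (columns); right, share of each state (percent of collagen-high cells) in each of the 14 mice with at least 10 cells, with the cell number. States 1, 2 and 3 hold most cells, and floxed isotype mouse 2 gives 52 of the 88 cells of state 4.

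State shares differed widely between mice and were not tested. State 1 made up 33.3, 50, 43.8 and 69.6% of collagen-high cells in LysM-Cre anti-PD-1 mice and 70.6, 45.5 and 61.5% in floxed anti-PD-1 mice 1, 3 and 4. It made up 26.7, 25.6, 29.5 and 15.4% in LysM-Cre isotype mice and 17.4, 6.63, 55.1 and 44.4% in floxed isotype mice. The LysM-Cre mice did not overlap between antibodies, while the floxed mice did. The lowest LysM-Cre anti-PD-1 value, 33.3%, rests on a mouse with 6 cells and lies close to 29.5% under isotype. State 1 held 66 cells of pool E5 and 157 of pool E6. Floxed isotype mice had 17.4 and 6.63% in E5 but 55.1 and 44.4% in E6. In no other condition did E6 lie wholly above E5.

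The next question was whether genotype or antibody changed how many such cells were recovered. In LysM-Cre anti-PD-1 mice the collagen-high share of assigned barcodes was 1.13, 2.65, 2.52 and 2.36%, and in floxed anti-PD-1 mice 1.80, 0.62, 3.16 and 2.53%. In LysM-Cre isotype mice it was 1.99, 1.497, 4.59 and 4.62%, and in floxed isotype mice 4.38, 9.51, 3.08 and 5.76%. The highest share, 9.51%, was in floxed isotype mouse 2, and 3 of the 4 floxed anti-PD-1 mice lay below all 4 floxed isotype mice, whose lowest share was 3.08%.

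Among floxed mice the share averaged 2.03 ± 1.09% under anti-PD-1 and 5.68 ± 2.78% under isotype (SD, n = 4 each), a difference of -3.65 percentage points (exact two-sided permutation test, p = 0.0571, adjusted p = 0.229 over 4 comparisons). It was -5.73 in pool E5 and -1.57 in pool E6. Among LysM-Cre mice the share averaged 2.16 ± 0.702% under anti-PD-1 and 3.18 ± 1.66% under isotype, a difference of -1.01 points (exact permutation p = 0.343, adjusted p = 0.457), with 0.145 in E5 and -2.17 in E6. LysM-Cre differed from floxed mice by -2.50 points under isotype (exact permutation p = 0.2, adjusted p = 0.4; -5.20 in E5, 0.190 in E6) and by 0.135 points under anti-PD-1 (exact permutation p = 0.886 before and after adjustment; 0.679 in E5, -0.409 in E6). None of the 4 differences passed the permutation test, for which the smallest p that 4 against 4 allows is 0.0286. The floxed comparison reached that p, with an adjusted p of 0.114, when the top hashtag had to hold 90% of hashtag counts (-2.45 points) or collagen had to reach 20 UMIs (-3.54 points). It did so too in cells with at most 6 immune UMIs (-2.71 points) or with 0 Xist UMIs (-3.24 points), alternatives chosen after seeing the data. A smaller share of sorted barcodes cannot be told apart from more of other cells, and the hashtag losses given above enter it as well.

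**Figure D4:**
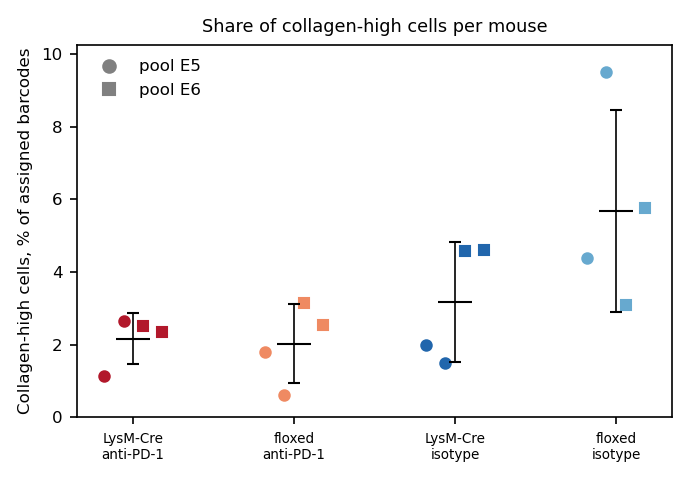
Collagen-high cells as percent of assigned barcodes for each mouse (circles, pool E5; squares, pool E6), with a line for the mean and error bars for the SD of 4 mice. Floxed isotype mice reach the highest value, 9.51%, and the conditions overlap in range.

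Expression was compared between conditions on UMIs summed per mouse, with edgeR's quasi-likelihood test, pool as a covariate and adjustment by Benjamini-Hochberg over all genes tested. Changes are log2 of the first over the second group. Under isotype, LysM-Cre mice 2 to 4 against all 4 floxed mice (at least 20 cells each, in a fit that also held the other mice with 20 cells) gave 0 of 10767 genes past an adjusted p of 0.05 (0%); DESeq2 also called 0, and 474 genes had an unadjusted edgeR p under 0.05, 243 higher and 231 lower. Without LysM-Cre isotype mouse 2 the count was 19, and without floxed isotype mouse 3 it was 1. The smallest p values belonged to Gm20186, Cd79a and Nfkbia. Nfkbia, an inhibitor of NF-kB, had 234, 516 and 413 CPM in LysM-Cre mice 2 to 4 and 112, 135.5, 300 and 225 CPM in floxed mice, values that overlap, with a log2 change of 0.86 (edgeR adjusted p = 0.951). Cd79a, a part of the B-cell receptor, was detected at 22.3 CPM in LysM-Cre isotype mouse 2.

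Of 20 tested genes of a glucocorticoid list, which holds the receptor gene Nr3c1 and the steroid-activating enzyme gene Hsd11b1 beside genes that glucocorticoids induce, 6 were higher at an unadjusted p under 0.05 and 0 lower, with a list median of 0.57 against 0.01 over all genes, and none passed adjustment. Tsc22d3, which encodes the glucocorticoid-induced leucine zipper, had 47.7, 291 and 45.9 CPM in LysM-Cre mice 2 to 4 against 23.7, 21.6, 54.3 and 33.5 CPM in floxed mice. The groups overlap, with LysM-Cre mouse 3 far above the rest, and the change was 1.60 (edgeR adjusted p = 0.951). Dissociation stress genes were higher in 7 of 19 at the same unadjusted limit (median 0.37) and MHC class II genes in 4 of 7 (median 1.83), and Xist differed by 1.61; whether stress or immune RNA has a part in these values was not tested. Nr3c1 itself, had 110, 89.7 and 73.0 CPM in LysM-Cre isotype mice 2 to 4 and 84.7, 78.2, 95.2 and 102 CPM in floxed isotype mice. Its fitted change was 0.01. Under isotype, Nr3c1 in C1q-high barcodes was 51.1, 36.3, 46.1 and 77.7 CPM for LysM-Cre and 75.7, 65.6, 66.9 and 76.7 CPM for floxed mice. Under anti-PD-1 it was 25.9, 20.9, 30.7 and 37.4 CPM against 66.5, 62.3, 63.4 and 52.8 CPM, without overlap. Recombination itself was not tested, and 3′ counts need not cover the floxed part.

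The anti-PD-1 comparisons took all 14 mice with at least 10 collagen-high cells, which leaves out LysM-Cre anti-PD-1 mouse 1 (6 cells) and floxed anti-PD-1 mouse 2 (1 cell). They share mice: the same floxed anti-PD-1 mice enter the genotype and the antibody comparison. Hacd1, a dehydratase of very-long-chain fatty acid elongation (chr2:14026831-14056035), had 52.3, 34.8 and 44.5 CPM in mice 2 to 4 of the LysM-Cre anti-PD-1 group and 106, 116.5 and 129 CPM in floxed anti-PD-1 mice 1, 3 and 4. In isotype mice it had 43.5, 50.6, 57.8 and 59.6 CPM (LysM-Cre) and 50.1, 52.2, 64.5 and 50.7 CPM (floxed). The floxed anti-PD-1 mice stood above every other mouse.

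Between genotypes under anti-PD-1, Hacd1 was the 1 gene of 9058 that passed (0.011%; DESeq2 called 4). It was lower in LysM-Cre, with a change of -1.42 (SE 0.20, edgeR adjusted p = 0.0338). With 661 genes at an unadjusted p under 0.05, 353 were higher and 308 lower. The call was lost in 12 of the 14 fits that left out 1 mouse, with adjusted p between 0.0623 and 0.417; it was kept without LysM-Cre anti-PD-1 mouse 2 or floxed isotype mouse 3. It was also lost, at an adjusted p of 0.137, when only cells with 0 Xist UMIs were used, an alternative chosen after seeing the data.

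Of 28 interferon genes 10 were higher in LysM-Cre anti-PD-1 mice at an unadjusted p under 0.05 and none passed adjustment; the list median was 1.05 against 0.01 over all genes. MHC class II genes were higher in 5 of 6 at that limit (median 2.47), neutrophil genes in 2 of 4, and Xist differed by 2.59. Summed immune genes were 572, 2788 and 1724 CPM in mice 2 to 4 of the LysM-Cre anti-PD-1 group against 2326, 411 and 265 CPM in floxed anti-PD-1 mice 1, 3 and 4. Their part in the interferon values was not tested.

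In floxed mice, anti-PD-1 against isotype gave 2 genes of 9058, both higher (0.0221%; DESeq2 called 11; 636 at an unadjusted p under 0.05, 325 higher and 311 lower). Hacd1 had a change of 1.09 (SE 0.16, edgeR adjusted p = 0.0293). Gm13889, at chr2:93955810-93957100, had 21.6, 50.8 and 23.2 CPM in floxed anti-PD-1 mice 1, 3 and 4 against 0.439, 0.651, 1.28 and 4.11 CPM in floxed isotype mice, a change of 4.55 (edgeR adjusted p = 0.0293); it fell outside the naming rule and was chosen after its values were seen. Both sets of values do not overlap. Leaving out 1 mouse lost the Hacd1 call in 11 of 14 fits (adjusted p 0.0552 to 0.219, kept without LysM-Cre anti-PD-1 mouse 2 or 3 or LysM-Cre isotype mouse 1) and the Gm13889 call in 8 (adjusted p 0.0548 to 0.249).

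Cxcl12 (chr6:117168535-117181368) had 29.5, 35.9 and 59.2 CPM in floxed anti-PD-1 mice 1, 3 and 4 against 174, 204, 169 and 177 CPM in floxed isotype mice. The 2 groups are far apart. Its change of -2.25 (SE 0.37) did not pass in edgeR (adjusted p = 0.0794) but did in DESeq2 (adjusted p = 3.4e-06). With LysM-Cre anti-PD-1 mouse 2 dropped the edgeR adjusted p was 0.00430, and without mouse 3 of that group 0.0311. In the other 12 of 14 fits that left out 1 mouse it did not pass (edgeR adjusted p 0.0691 to 0.361). In LysM-Cre mice 2 to 4 under anti-PD-1 Cxcl12 had 19.9, 141.5 and 82.9 CPM, against 160, 147, 166 and 187 CPM in LysM-Cre isotype mice, a change of -1.13 (edgeR adjusted p = 0.544). Cell-cycle genes were lower in 7 of 20 floxed-mouse tests at an unadjusted p under 0.05 (median -0.75), with none past adjustment. Interferon genes were lower in 4 of 28 and higher in 0 at that limit (median -0.58), again with none past adjustment.

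**Figure D5:**
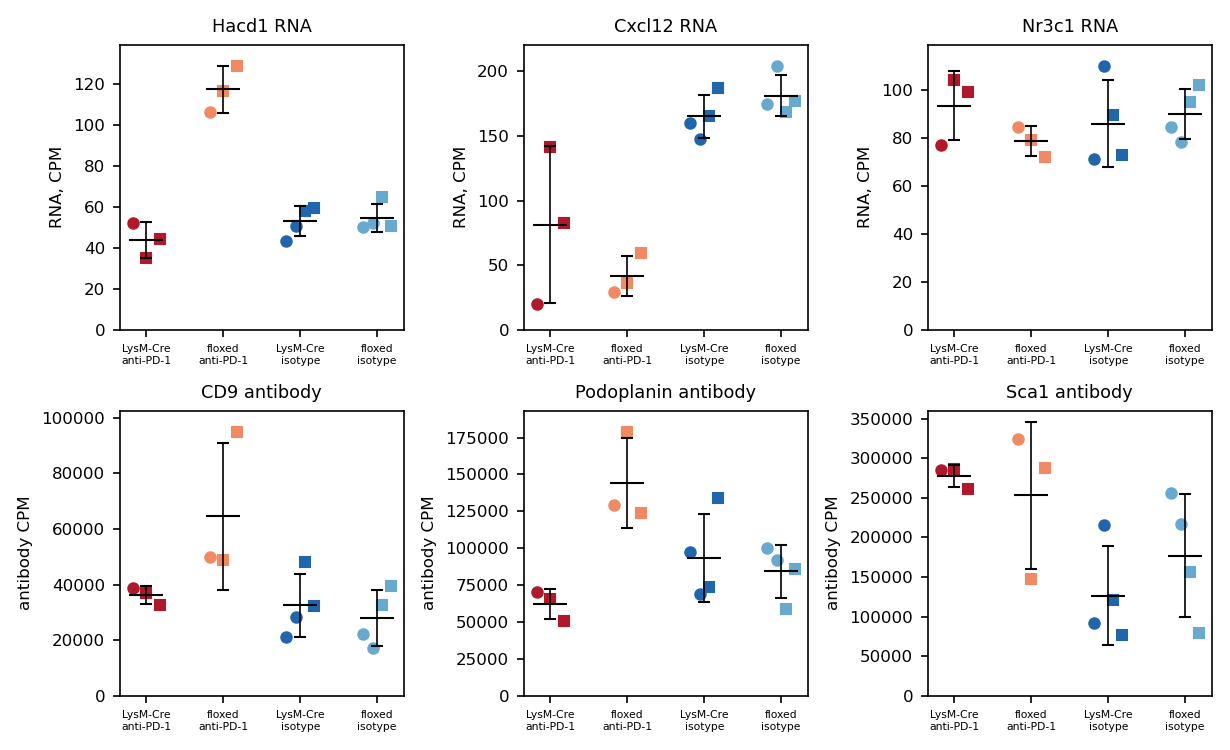
Hacd1, Cxcl12 and Nr3c1 RNA (CPM) and CD9, Podoplanin and Sca1 antibody (antibody CPM) in collagen-high cells of each mouse with at least 10 cells (circles, pool E5; squares, pool E6), with mean and SD. Hacd1 is highest in floxed anti-PD-1 mice, at 106 to 129 CPM, and Nr3c1 overlaps between all conditions.

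In LysM-Cre mice anti-PD-1 against isotype gave 0 of 9058 genes (0%); DESeq2 also called 0, and 701 genes had an unadjusted edgeR p under 0.05, 404 higher and 297 lower. The count was 3 when LysM-Cre anti-PD-1 mouse 2 was dropped. Tinagl1, a secreted matrix protein gene, had the smallest p, with 74.7, 54.6 and 93.0 CPM in anti-PD-1 mice 2 to 4 against 27.7, 31.3, 27.6 and 35.4 CPM in isotype mice and a change of 1.25 (SE 0.25, edgeR adjusted p = 0.544). The groups do not overlap. Rgl2, an exchange factor for Ral GTPases, followed with -1.75 and H2-M3, a nonclassical MHC class I gene, with 1.21, at the same adjusted p.

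Interferon genes were higher in 16 of 28 at an unadjusted p under 0.05 (median 1.25 against 0.01 over all genes), with 0 past adjustment. Their summed level was 3327, 7441 and 4300 CPM in mice 2 to 4 of the LysM-Cre anti-PD-1 group against 2793, 6026, 1564 and 848 CPM in LysM-Cre isotype mice, which overlaps. Iigp1, an interferon-induced GTPase gene, had 319, 844 and 570 CPM against 170, 410, 91.5 and 27.8 CPM in isotype mice. MHC class I genes were higher in 9 of 15 at that limit (median 0.86), and their sum was 7065, 7362 and 6973 CPM against 4650, 6525, 4797 and 2151 CPM in isotype mice, without overlap. LysM-Cre anti-PD-1 mouse 1, left out of the fit for its 6 cells, had 4607 CPM of them and 1171 CPM of interferon genes. Both values lie inside the isotype range. State 5 made up 12.5, 18.8 and 4.35% of the cells of anti-PD-1 mice 2 to 4 and 0, 20.9, 2.27 and 0% in isotype mice. The difference between the antibody changes of the 2 genotypes gave 0 of 9058 genes in edgeR (0%), 455 at an unadjusted p under 0.05 (273 higher, 182 lower) and 2 in DESeq2, Hacd1 and Tpm4; Hacd1 was -1.38 (edgeR adjusted p = 0.484). Of 28 interferon genes 16 were higher and 0 lower in this difference at the unadjusted limit (median 1.69 against 0.01 over all genes). None of them passed adjustment.

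Surface antibodies changed with anti-PD-1 in floxed mice. Of 76 antibodies tested on counts summed per mouse, 5 passed in edgeR (6.58%), 3 higher (3.95%) and 2 lower (2.63%). Without TMM scaling 13 passed, 1 higher and 12 lower, so the balance of directions depended on the scaling. CD9 had 49980, 48780 and 95045 antibody CPM (a share of all antibody counts, scaled like the RNA CPM) in floxed anti-PD-1 mice 1, 3 and 4 against 22287, 17086, 32575 and 39493 in floxed isotype mice. The groups do not overlap, and the change of 1.92 (SE 0.33, edgeR adjusted p = 0.00355) was kept in all 14 fits that left out a mouse. CD9 was lowest in state 4, with 7.98 counts per cell against 23.5 to 42.8 in the other states. State 4 held 15 of 86, 52 of 196, 2 of 118 and 7 of 54 cells in floxed isotype mice. In floxed anti-PD-1 mice 1, 3 and 4 it held 1 of 17, 2 of 22 and 0 of 13. The part of state 4 in the CD9 change was not tested. Podoplanin had 129186, 179039 and 123949 antibody CPM against 100329, 92033, 59092 and 86176 in isotype mice, again without overlap, a change of 1.55 (edgeR adjusted p = 0.0106). That call did not survive leaving out floxed isotype mouse 4 (adjusted p = 0.0727) and without TMM scaling (0.78, adjusted p = 0.0827).

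Sca1 rose in LysM-Cre mice, the 1 of 76 antibodies past the threshold there (1.32%). It had 285167, 285797 and 261336 antibody CPM in mice 2 to 4 of the LysM-Cre anti-PD-1 group against 92489, 215662, 120974 and 76622 in LysM-Cre isotype mice, a change of 1.7002 (SE 0.38, edgeR adjusted p = 0.0348). The call was lost in 13 of 14 fits that left out a mouse (adjusted p 0.0516 to 0.250, the exception being the fit that dropped floxed anti-PD-1 mouse 4), and also without TMM scaling (1.30, adjusted p = 0.142). In floxed mice Sca1 passed with 1.41 (edgeR adjusted p = 0.0310) although its values overlap, and it was lost in 6 fits and without TMM scaling (0.67, adjusted p = 0.219). The macrophage antibodies CD169 (-2.74, edgeR adjusted p = 0.0116) and CD68 (-1.84, edgeR adjusted p = 0.0310) were lower in floxed anti-PD-1 mice. CD169 had 101, 387 and 73.7 antibody CPM there against 1940, 2957, 1497 and 2940 in isotype mice; these rest on 0.118, 0.455 and 0.0769 counts per cell in the anti-PD-1 mice. Its call did not hold once floxed anti-PD-1 mouse 1 was dropped (-2.37, adjusted p = 0.117). The CD68 call was lost without floxed anti-PD-1 mouse 1 or 4 or floxed isotype mouse 2 (edgeR adjusted p 0.0900 to 0.145). Both antibodies were highest in state 4. CD169 had 3.07 counts per cell there and 1.10 to 1.66 in the other states, and CD68 5.84 and 1.32 to 2.91. Between genotypes 0 of 75 antibodies passed under isotype (0%; 5 at an unadjusted edgeR p under 0.05) and 0 of 76 under anti-PD-1 (0%; 7), and 0 of 76 for the difference of changes (0%; 5); DESeq2 was not run on antibodies.

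Finally, collagen-high cells with Y-linked UMIs and none of Xist were set against those with Xist and none Y-linked in the same mice. At least 5 cells of each class were found in LysM-Cre isotype mouse 2 (24 against 5 cells) and mouse 3 (28 against 5), and in floxed isotype mouse 2 (15 against 16) and mouse 3 (53 against 5). Most Xist-positive cells of floxed isotype mice 2 and 3 and of LysM-Cre isotype mouse 3 held only a single Xist UMI. Those of LysM-Cre isotype mouse 2 each held at least 5. Of 6938 genes, leaving out the sex-linked ones and those of the selection rule, 11 passed in edgeR (0.159%). Rgs1, a regulator of G-protein signalling in lymphocytes, was lower in Y-positive cells by -4.76, Csf1r, the macrophage growth factor receptor gene, by -3.26, and Laptm5, a lysosomal protein gene of leukocytes, by -2.78. The chemokine genes Ccl2 and Cxcl9 were higher, by 3.96 and 3.27, as were Serpine2 and Cebpd.

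Ccl2 had 1599 CPM in Y-positive cells and 79.8 CPM in Xist-positive cells of floxed isotype mouse 2, and 321 against 11.5 CPM in mouse 3. In LysM-Cre isotype mice it had 570 against 56.6 CPM in mouse 2 and 184 against 20.6 CPM in mouse 3 (edgeR adjusted p = 0.000924). It was higher in Y-positive cells in 4 of 4 mice. The count fell to 2 without LysM-Cre isotype mouse 2 and to 1 without mouse 3 of that group. The median of the 6 immune genes was 6 UMIs in Y-positive and 133 in Xist-positive cells of LysM-Cre isotype mouse 2, but 7 against 5 in floxed isotype mouse 2; the part of immune RNA in these calls was not tested.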

How the data were processed

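The authors deposited 1 filtered 10x matrix per pool, holding raw counts (UMIs) of 32285 genes and 88 antibodies per barcode; Cell Ranger 6.1.2 made them per the file headers, while Cell Ranger 3.0.1 and mm10 appear in the submitters' processing notes. Pools held 176338827 (E5) and 221763950 (E6) gene UMIs. No deposited cell annotation was used; members and gene lists were chosen with earlier results of these data known. UMIs were summed per mouse, and genes were tested with edgeR 4.0.16 (TMM scaling, quasi-likelihood, pool as covariate, mean of at least 10 CPM for named genes), in R 4.3.3, with DESeq2 1.42.0 as an alternative. The edgeR gene tests between conditions and between classes were checked on simulated data. The difference of changes, the antibody tests and the share tests were not. Named genes were, per direction, up to 15 with the largest change among those that passed (or the 3 with the smallest p if none did), plus up to 6 of each list. Shares were compared by exact permutation (scipy 1.17.1). P-values measure the spread between hashtagged mice; counting intervals are not given for sums over mice. States came from scanpy 1.11.5 and Leiden clustering (2000 variable genes, 20 components, 15 neighbours, resolution 0.5). Scrublet's own threshold marked 0 doublets and no barcode was removed, so its top 10% of scores served as an alternative. Anti-PD-1 comparisons needed the limit of 10 cells per mouse and the class comparison that of 5, since too few mice passed the planned limits of 20 and 10.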

Additional observations from a re-analysis of the deposited data

Results flagged for a closer look

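In 48 combinations of a value and a condition, 2 had a mouse far from the other 3 of its condition, and chance alone flags about 1 in 20 such groups. Both were floxed isotype mouse 3. Its collagen-high cells had 64.5 CPM of Hacd1, against 50.1 to 52.2 CPM in the other 3 floxed isotype mice. They had 248 CPM of Col1a1, a gene of the selection rule, against 482 to 493 CPM in the other 3.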

How the results depend on the processing

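Numbers of called genes in this paragraph follow the order LysM-Cre over floxed under isotype, the same under anti-PD-1, anti-PD-1 over isotype in LysM-Cre, the same in floxed mice, and the difference of changes. Without a filter on low counts edgeR called 230, 230, 241, 257 and 156 genes, and 205 between the Y-positive and Xist-positive classes. DESeq2 called 4 genes between genotypes under anti-PD-1, 11 for anti-PD-1 in floxed mice, 2 for the difference of changes and 58 between classes. The genotype comparison under anti-PD-1 gave 0 with no replicate block (pool left out; Hacd1 -1.43, edgeR adjusted p = 0.0551), with only the 2 conditions fitted, with at least 20 collagen UMIs, with 0 Xist UMIs and without the top Scrublet scores. In floxed mice these cell limits gave 1, 5 and 4 genes, and the difference of changes gave 1 with 0 Xist UMIs. Without TMM, 0 antibodies passed in LysM-Cre and 13 in floxed mice (1 higher, 12 lower). The limits of 6 immune UMIs, 0 Xist UMIs and the Scrublet scores, and shares per 100 C1q-high barcodes, were chosen after seeing the data.

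Leaving out 1 mouse gave 0 to 19, 0 to 1, 0 to 3, 0 to 3 and 0 genes, 0 to 1 antibodies in either of the genotype comparison under anti-PD-1 and anti-PD-1 in LysM-Cre, 2 to 8 antibodies in floxed mice, and 1 to 16 genes between classes. Share differences then ran between -3.37 and -1.23, -0.335 and 0.512, -1.57 and -0.530, and -4.52 and -2.38 points; the second turned to -0.0284 without LysM-Cre anti-PD-1 mouse 2 and to -0.335 without floxed anti-PD-1 mouse 2. With at most 2 immune UMIs (70 cells) the share difference for anti-PD-1 in LysM-Cre mice turned to 0.159. Gene fits on those 70 cells could not be run, nor could class fits at 10 cells (1 mouse) or anti-PD-1 fits at 20 cells or 90% hashtag share (fewer than 3 mice). The same held for class fits with at least 2 UMIs for either class, at 90% hashtag share or without the top Scrublet scores. Cells per mouse, 1 to 196, limit the depth. The causes of these changes were not tested.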
